A study of Rattus norvegicus with 21 samples.

Results

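Rab GTPases are small proteins that switch between a GDP-bound and a GTP-bound form and mark the membranes of the secretory and endocytic routes. They were taken as the gene names made of "Rab", a number and at most one letter, and 56 of the 28914 gene names in the count table met that rule. The 56 were followed in islets of Langerhans from 11 rats after partial pancreatectomy (PX), in which the study removed 90% of the pancreas, and from 10 sham-operated rats (Sham). All animals were Lewis rats sampled 4 weeks after the operation, described in the labels as 4-5 week rats, and each library was made from polyadenylated RNA with a directional kit. Each label also carries a BG value, the average before the animal was killed, with no unit. BG averaged 124 ± 23.1 in the PX rats, against 94.7 ± 6.0 in the Sham rats (SD over 11 and 10 animals), 29.0 higher in PX by a two-sided permutation test (p = 4e-05, or 0.0001 after Benjamini-Hochberg adjustment over 13 library measures). Animals are named below by group and label number, such as PX 65.

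In the active form each Rab recruits its own effectors, among them tethers, motor adaptors and priming factors, and so directs 1 kind of vesicle to its target membrane. Exchange factors load GTP, GTPase-activating proteins end the signal, and escort proteins carry the lipid-modified Rabs between membranes and cytosol. In beta cells Rab3 and Rab27 proteins sit on insulin granules and act in their docking and release, and other Rabs serve the endoplasmic reticulum, Golgi, endosomes and lysosomes that every cell has.

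The libraries held 4001908 to 13187959 assigned reads in PX and 4695195 to 11266015 in Sham. Beta cell marker genes made up 3.64% to 18.9% of counts in PX and 9.29% to 18.6% in Sham, so islet cells were represented in all libraries. Cells of other kinds were also represented. Levels below are CPM, reads of a gene scaled to library size times a TMM normalization factor. That factor was lowest in PX 65, at 0.3587, and highest in Sham 24, at 1.268. A low factor raises the CPM of every gene in a library, so high values in PX 65 rest partly on it. Acinar genes took 6.23% to 49.3% of counts in PX, the highest in PX 65, and 0.644% to 23.8% in Sham. The acinar score, a mean log2 CPM, averaged 11.2 ± 1.21 in PX and 9.47 ± 2.01 in Sham (SD). It was 1.77 higher in PX (two-sided permutation test, adjusted p = 0.032 over 13 library measures). In several libraries of both groups acinar genes took a larger share than beta cell genes. Those shares were 49.3% and 3.64% in PX 65 and 23.8% and 11.6% in Sham 48. In other libraries the order was the reverse, such as 6.23% and 14.2% in PX 36. All 13 macrophage genes that could be tested, of 15 listed, were higher in PX, with a summed level of 120 to 739 CPM in PX and 39.8 to 117 CPM in Sham. None of those 13 was at 0 in any library, whereas Marco was at 0 in 10 PX and 10 Sham libraries. In these bulk samples fewer cells of a type and less RNA per cell cannot be told apart. Sham 46 had the highest macrophage score of the Sham libraries, 2.615 as a mean log2 CPM, against 2.718 in PX 44, the lowest PX library.

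Of the 56 Rab genes, 50 had enough reads to be tested. With edgeR's quasi-likelihood test and a Benjamini-Hochberg adjusted p under 0.05 over 13136 genes, 6 Rabs were higher in PX and 6 were lower. Of all genes tested, 14.9% were higher and 16.2% lower, so the shares of Rabs that rose or fell were no larger than those among all genes. The same shares stand beside the counts by route below. Each of those counts rests on few Rabs and is not read as a trait of its route. The median log2 fold change was -0.10 over the tested Rabs and -0.04 over all genes. The summed level of the 56 Rabs was 2079 to 2608 CPM in PX (median 2278) and 2062 to 2507 CPM in Sham (median 2448), and the groups overlapped. The rises were in Rab32, Rab38, Rab27b, Rab13, Rab31 and Rab8a. The falls were in Rab6b, Rab36, Rab3b, Rab40c, Rab14 and Rab23. The rises were 9.03-fold for Rab32, 3.47-fold for Rab38 and between 1.26-fold and 2.57-fold for the others. Apart from Rab6b the falls were between 1.22-fold and 1.60-fold. Rab32 and Rab38 passed the filter on low counts chiefly through PX, so the sizes of rises and falls are not compared.

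**Figure D1:**
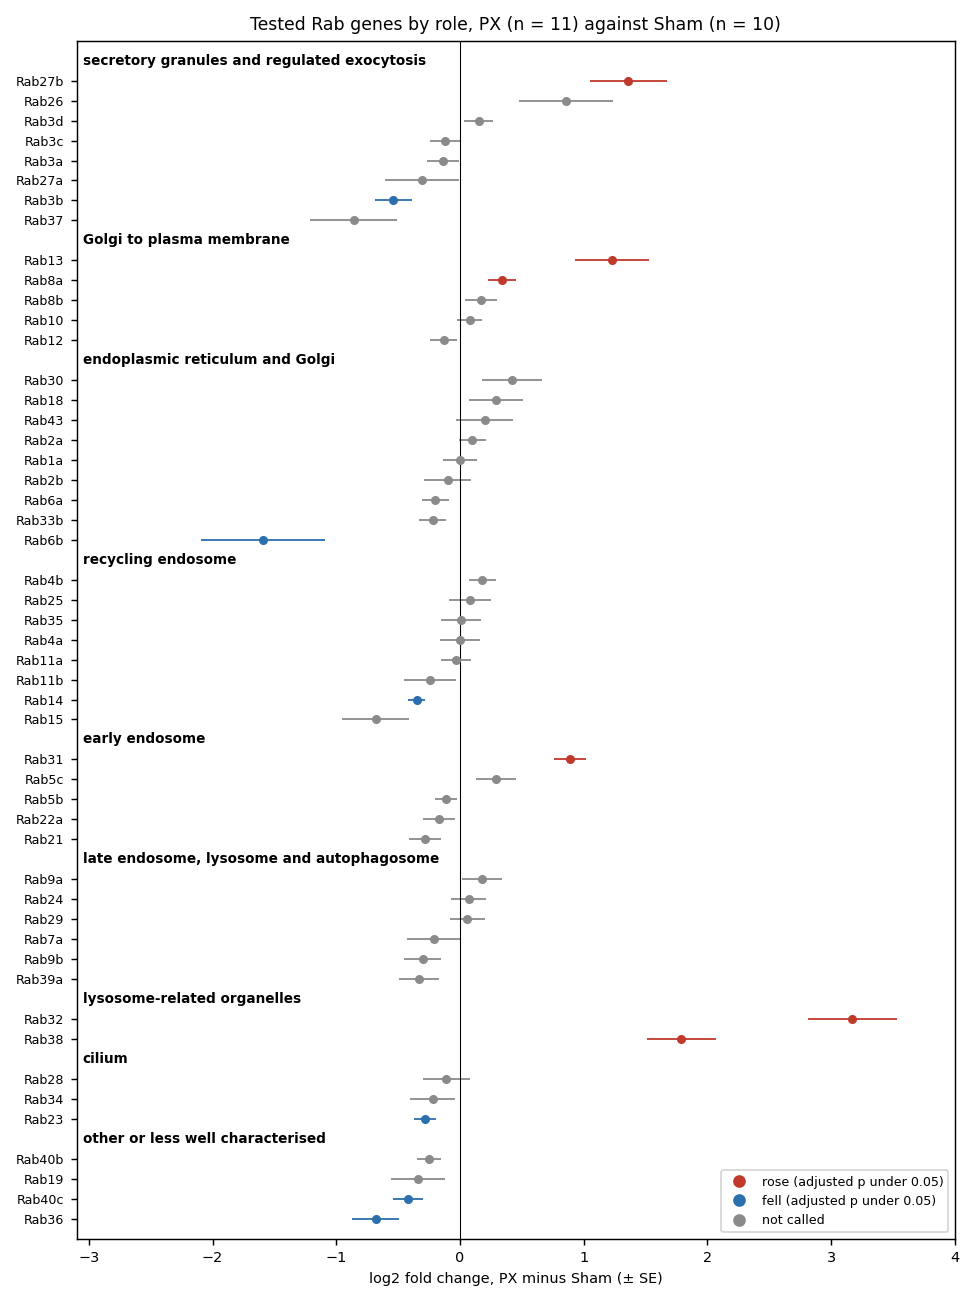
Log2 fold change of each tested Rab gene, PX minus Sham, with its standard error, grouped by the membrane the protein is known to serve; red and blue mark genes past an adjusted p of 0.05. Rab32 at 3.17 and Rab38 at 1.79 stand furthest to the right, Rab6b at -1.59 furthest to the left, and most Rabs lie near 0.

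Promoter sequences are shown for Rab32, Rab31 and Rab27b because these 3 called Rabs differ most in kind: a Rab of lysosome-related organelles, an endosomal Rab and a granule Rab. Each is the 250 bases before the gene's start, 5′ to 3′ on the gene's strand, from RefSeq on build GRCr8, and all 3 genes lie on the minus strand. The RefSeq table held 46 of the 56 Rabs, as 47 promoter entries, and 9 of the 12 called ones. Rab32 is at chr1:6781259-6781508, Rab31 at chr9:112828093-112828342 and Rab27b at chr18:65938584-65938833. Capitals mark matches on either strand to 3 hexamers. CACGTG is an E-box of the kind that the MITF and TFE3 family binds, and a second such E-box is CATGTG. The third hexamer is GGAAGT, an ETS core of the kind PU.1 binds. The 3 hexamers did not overlap in these windows.
Rab32 promoter: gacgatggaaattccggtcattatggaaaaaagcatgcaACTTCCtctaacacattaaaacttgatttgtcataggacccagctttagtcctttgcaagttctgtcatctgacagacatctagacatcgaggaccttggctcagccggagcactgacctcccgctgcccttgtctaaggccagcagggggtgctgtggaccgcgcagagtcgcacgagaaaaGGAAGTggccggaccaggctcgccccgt
Rab31 promoter: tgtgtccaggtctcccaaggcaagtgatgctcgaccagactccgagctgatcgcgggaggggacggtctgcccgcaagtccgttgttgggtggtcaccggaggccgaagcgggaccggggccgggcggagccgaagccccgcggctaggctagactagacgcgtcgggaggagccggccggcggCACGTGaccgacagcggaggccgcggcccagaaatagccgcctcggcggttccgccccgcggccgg
Rab27b promoter: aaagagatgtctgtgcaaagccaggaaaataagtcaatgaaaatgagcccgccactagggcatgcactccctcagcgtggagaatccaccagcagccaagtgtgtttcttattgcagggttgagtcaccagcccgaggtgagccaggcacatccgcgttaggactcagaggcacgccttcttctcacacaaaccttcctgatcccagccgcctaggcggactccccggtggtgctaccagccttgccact
In Rab32, GGAAGT stood 28 to 23 bases before the start, and its reverse complement stood 211 to 206 bases before it. In Rab31, CACGTG stood 66 to 61 bases before the start. The Rab27b window held none of the 3 hexamers. These motifs were chosen after the sequences had been read. CACGTG was found in 5.59% of 33469 rat promoters of this length, CATGTG in 12.1% and GGAAGT in 19.2%, and in 2, 3 and 9 of the 47 Rab entries. A match is a description of the letters and was not tested as a binding site.

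Among the 50 Rabs that passed the filter, those of lysosome-related organelles had the largest log2 fold changes. Rab32, which with Rab38 carries enzymes to melanosomes and related organelles, had 3.39, 6.56 and 16.7 CPM as the lowest, median and highest PX libraries, against 0.379, 0.793 and 2.40 CPM in Sham. All 11 PX libraries lay above all 10 Sham libraries. Of the 13136 genes tested, 203 (1.55%) showed that separation. The log2 fold change was 3.17 ± 0.36 (SE; edgeR, Benjamini-Hochberg adjusted p = 1.53e-06), a 9.03-fold difference. Rab38 had 1.57, 3.46 and 6.49 CPM as the lowest, median and highest values in PX and 0.509, 0.918 and 2.51 CPM in Sham. The highest Sham library was Sham 46, and 9 PX libraries lay above it. Its log2 fold change was 1.79 ± 0.28 (edgeR, adjusted p = 5.01e-05). Both Rabs passed the filter on low counts chiefly through PX. Its level was 1.43 CPM before TMM scaling. All 11 PX libraries were above that level, against 2 Sham libraries for Rab32 and 1 for Rab38. All 13 tested macrophage genes were also higher in PX. Sham 46, the Sham library with the highest macrophage score, had the highest Rab32 and Rab38 of the Sham libraries. Among PX libraries the lowest score was in PX 44, where Rab32 was 4.41 CPM and Rab38 was 3.46 CPM, the PX median, whereas the lowest Rab32 was in PX 66. With the macrophage score as a covariate, a model added after the data were seen, the Rab32 difference was 1.10 (edgeR, adjusted p = 0.303). That score shares 0.763 of its variance with the group, so the model separates them poorly, and the part of macrophages in the result was not tested.

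Among the 5 tested Rabs of early endosomes, Rab31 rose and none fell. Rab31, which works between the trans-Golgi network and endosomes, had 26.5, 38.4 and 50.1 CPM as the lowest, median and highest PX values and 16, 19.5 and 24.7 CPM in Sham. The groups did not overlap, as for Rab32, and no other tested Rab had that separation. The log2 fold change was 0.89 ± 0.13 (edgeR, adjusted p = 1.56e-05), a 1.85-fold difference. Mesenchymal markers, with a summed level of 741 to 2947 CPM in PX and 281 to 915 CPM in Sham, and macrophage markers were also higher in PX, and their part in the Rab31 result was not tested. Rab22a, a relative of Rab31 on early endosomes, had 23.0, 42.4 and 50.5 CPM in PX and 31, 44.7 and 57.1 CPM in Sham as lowest, median and highest values, with a log2 fold change of -0.17 ± 0.13 (edgeR, adjusted p = 0.339). Rab5b, Rab5c and Rab21, which act in fusion and uptake at early endosomes, had log2 fold changes of -0.11, 0.29 and -0.28 and were not called.

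Of the 5 Rabs that act between the Golgi and the plasma membrane, 2 rose and none fell, against 14.9% and 16.2% of all genes. Rab13, which serves tight junctions of epithelia, had 2.77, 7.62 and 13.9 CPM as the lowest, median and highest PX values and 1.19, 3.12 and 8.62 CPM in Sham. The highest Sham library was Sham 46, and the groups also overlapped at the low end, where PX 44 lay below most Sham libraries. The log2 fold change was 1.23 ± 0.30 (edgeR, adjusted p = 0.00306). Duct markers rose in 6 of 9 tested genes, and their part in this result was not tested. Rab8a, which carries vesicles from the Golgi to the cell surface and the cilium, had 52.9, 76.7 and 104 CPM in PX and 54.1, 60.6 and 80.8 CPM in Sham. The groups overlapped widely, and its log2 fold change was 0.34 ± 0.11 (edgeR, adjusted p = 0.0187). The difference was not called when libraries were scaled by their totals alone (0.08, adjusted p = 0.699 by edgeR), with the acinar covariate (0.155) or with PX libraries of BG 121 or less (0.053). Rab10, which takes part in the traffic of glucose transporters, was not called, at 0.08 ± 0.10 (edgeR, adjusted p = 0.552).

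**Figure D2:**
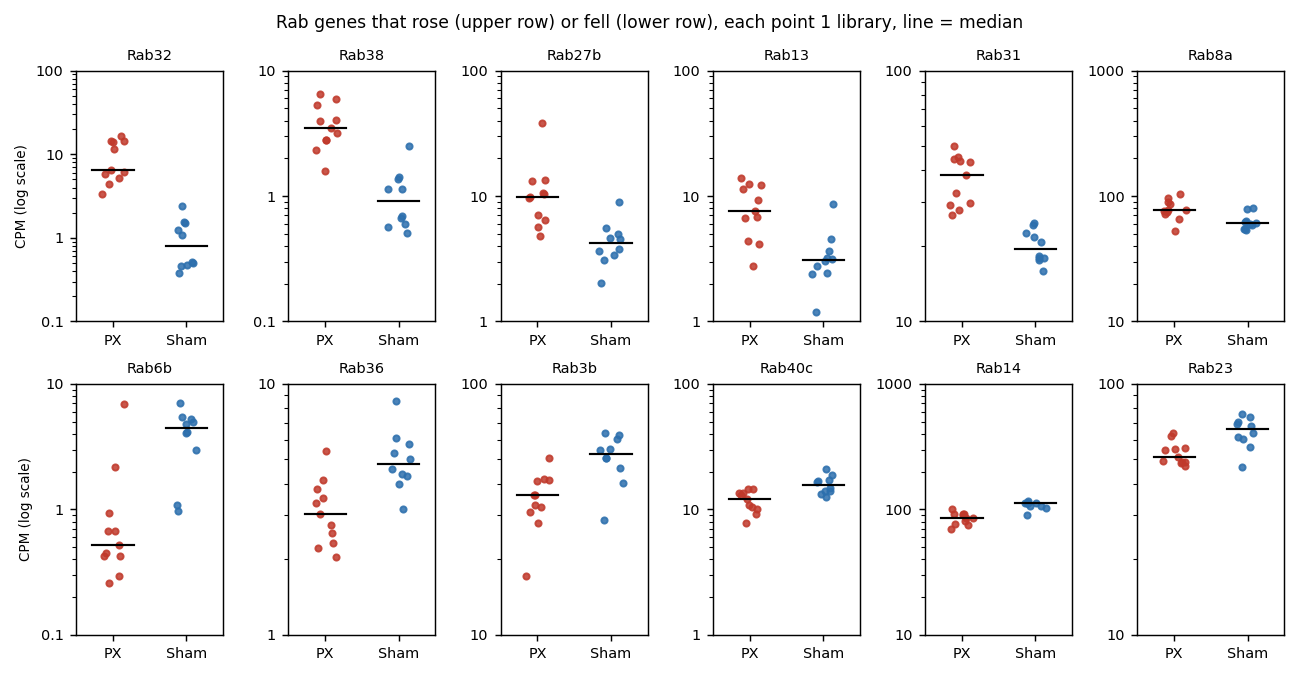
CPM on a log scale of the 12 Rab genes called between PX and Sham, 1 point per library, with the group median as a line. Rab32 and Rab31 have no overlap between groups (3.39 to 16.7 CPM in PX and 0.379 to 2.40 CPM in Sham for Rab32), and the other 10 overlap to some extent.

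All 8 Rabs of secretory granules and regulated exocytosis could be tested, and 1 rose and 1 fell. Rab27b, which with Rab27a tethers granules near the plasma membrane through synaptotagmin-like proteins, had 4.80, 9.90 and 38 CPM as the lowest, median and highest PX values, against 2.02, 4.20 and 8.94 CPM in Sham. The highest PX library was PX 65 and the highest Sham library was Sham 46, and 7 PX libraries lay above all Sham libraries. The log2 fold change was 1.36 ± 0.31 (edgeR, adjusted p = 0.00217). PX 65 was also the library with the highest acinar share, 49.3% of counts, and the lowest TMM factor, 0.3587, which raises its CPM. With library totals alone the Rab27b difference was 0.92 (edgeR, adjusted p = 0.0042). With an acinar score as a covariate the difference was 0.61 (edgeR, adjusted p = 0.0954). Rab27a, the more abundant of the pair per length, was not called: it had 25.5, 69.5 and 140 CPM in PX and 28.4, 97.1 and 140 CPM in Sham, with a log2 fold change of -0.31 ± 0.30 (edgeR, adjusted p = 0.457).

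Rab3b, an exocytosis Rab of the Rab3 family, had 17.1, 36.2 and 50.8 CPM as the lowest, median and highest PX values and 28.7, 52.7 and 63.9 CPM in Sham. The lowest libraries were PX 65 and Sham 46, the groups overlapped, and the log2 fold change was -0.54 ± 0.15 (edgeR, adjusted p = 0.00829). With the acinar covariate the difference was -0.34 (edgeR, adjusted p = 0.126), and with PX libraries of BG 121 or less it was -0.39 (0.0563). Rab3a, best known from synaptic vesicles and insulin granules, had 22.2, 39.8 and 53.4 CPM in PX and 33.3, 42.9 and 53.2 CPM in Sham and was not called, at -0.14 ± 0.13 (edgeR, adjusted p = 0.422). Its exons overlap those of Mpv17l2 on the opposite strand, and the strand setting of the counting is not given, so its counts are less certain. Rab3c, the least abundant of the 4 Rab3 genes per length, was at -0.12 ± 0.12. Rab3d, known from zymogen granules of acinar cells and the most abundant Rab3 per length in PX, had 124, 138 and 247 CPM in PX and 117, 137 and 172 CPM in Sham, with a log2 fold change of 0.15 ± 0.12 (edgeR, adjusted p = 0.333). Its highest library was again PX 65, whose low TMM factor raises its CPM.

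Rab26 and Rab37 were not called in the main fit, and both depended on single libraries and on the tool. DESeq2 called Rab26 (0.92, adjusted p = 0.043) and Rab37 (-0.82, 0.0439), and limma voom called Rab37 (-1.17, adjusted p = 0.0475). With library totals alone, edgeR called Rab37 (-1.07, adjusted p = 0.0491) and not Rab26 (0.49, 0.192). Rab26, which acts in granule maturation of exocrine cells, had 2.85, 6.71 and 25.4 CPM in PX, the highest in PX 65, and 1.18, 4.01 and 8.94 CPM in Sham, the highest in Sham 46. Its log2 fold change was 0.86 ± 0.38 (edgeR, adjusted p = 0.0856), and without Sham 46 it was 1.09 (adjusted p = 0.0332). Rab26 overlaps a gene listed as RF00271 on the opposite strand, so its counts are less certain. Rab37, a Rab of secretory granules in several cell types, had 0, 1.18 and 2.42 CPM in PX and 0.872, 2.19 and 3.26 CPM in Sham. It had no reads in PX 65 and PX 70, and its log2 fold change was -0.86 ± 0.35 (edgeR, adjusted p = 0.0611). Without PX 44 it was -0.99 (adjusted p = 0.0295 by edgeR). In the authors' deposited table, which lists 50 of the Rabs, the same 12 Rabs called here were past an adjusted p of 0.05 in the same direction, and Rab37 was too, at -1.17 and 0.0482.

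**Figure D3:**
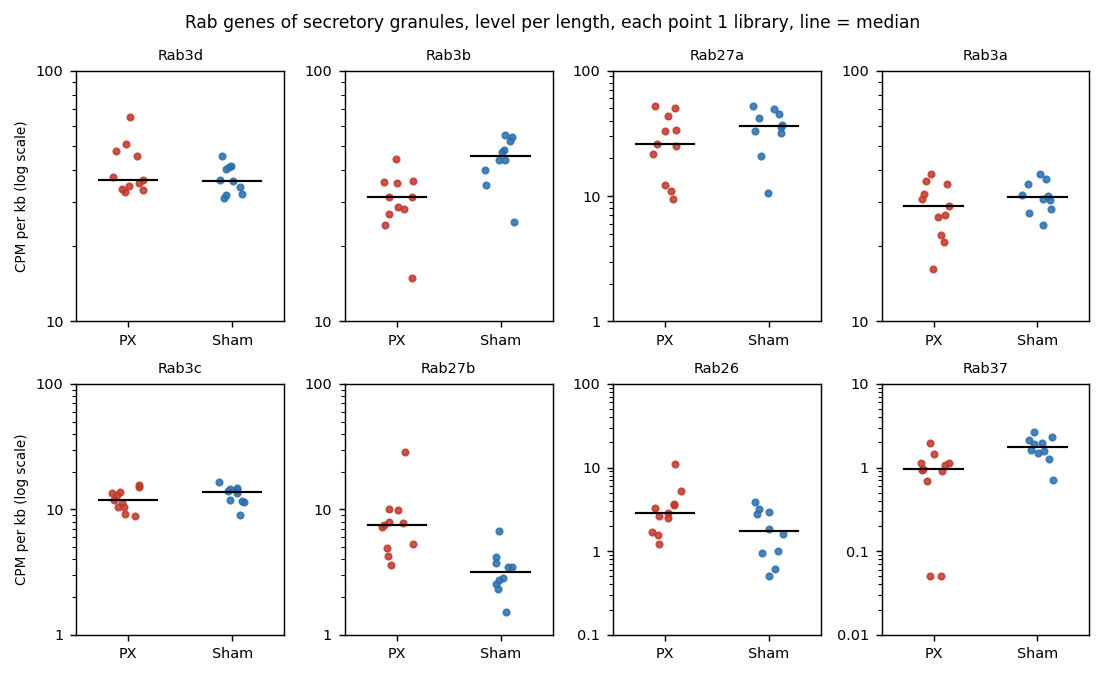
CPM per kilobase of gene length, on a log scale, of the 8 Rab genes of secretory granules in order of level, 1 point per library and the group median as a line, with 2 values of 0 drawn at 0.05. Rab3d averages 41.4 CPM per kilobase in PX and 37.1 in Sham, Rab3b 30.7 in PX and 44.6 in Sham, and Rab37, the lowest of the 8, 0.929 in PX and 1.76 in Sham.

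Of 9 tested Rabs of the endoplasmic reticulum and Golgi, 1 fell and none rose. Rab6b, the Rab6 isoform known mainly from neurons, had 0.259, 0.516 and 6.86 CPM as the lowest, median and highest PX values and 0.969, 4.46 and 7.05 CPM in Sham. It was low in 9 of 11 PX libraries, which lay below all Sham libraries, but high in PX 58 (6.86 CPM) and intermediate in PX 57 (2.19 CPM). Sham 46 and Sham 49 were the low Sham libraries. The log2 fold change was -1.59 ± 0.50 (edgeR, adjusted p = 0.0182). It passed the filter through 2 PX and 8 Sham libraries and was too low to be tested when PX 57 or PX 58 was left out. Rab6b was not called with the acinar covariate (edgeR, adjusted p = 0.08) or with PX libraries of BG 121 or less (0.0792). Rab6a, the common Rab6 of Golgi traffic, had 79.1, 93.5 and 127 CPM in PX and 71.3, 112 and 141 CPM in Sham, at -0.20 ± 0.11 (edgeR, adjusted p = 0.162).

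The most abundant Rabs served several routes. Per kilobase of gene length, Rab1a, which acts between the endoplasmic reticulum and Golgi, had 207 ± 56.6 CPM in PX, against 208 ± 32.7 CPM in Sham (SD over 11 and 10 libraries), the highest level of any Rab in either group. Rab7a, the late endosome and lysosome Rab, followed at 67.7 ± 22.9 CPM per kilobase in PX and 78.3 ± 22.4 in Sham. Rab10, at 52.6 ± 8.87 in PX and 49.8 ± 5.66 in Sham, Rab18, a Rab of the endoplasmic reticulum and lipid droplets, at 54.9 ± 17.6 in PX and 44.8 ± 13.9 in Sham, and Rab2a, of Golgi traffic, at 47 ± 8.93 in PX and 44 ± 4.91 in Sham, came next. These 3 lay within their spread of each other and of Rab11a, the recycling endosome Rab, at 44 ± 11.7 in PX and 45.1 ± 6.13 in Sham. None of the 5 most abundant Rabs was called between PX and Sham. Rab2a's level rests on a gene model of 621 base pairs, so its place in this order is less certain.

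Across all 21 libraries, 4 Rabs separated the libraries along other lines than the group. PX 57, PX 65, Sham 49 and Sham 50 held the 4 lowest values of Rab7a, Rab18, Rab28 and Rab1a. Rab7a was 52.6 to 91.5 CPM in those 4 and 154 to 224 CPM in the other 17. Rab18 was 31 to 46.1 CPM in the 4 and 74.2 to 126 CPM in the other 17. Rab1a was 227 to 299 CPM in the 4 and 306 to 593 CPM in the other 17. These ranges did not overlap, and 2 of the 4 low libraries were PX and 2 were Sham. Rab28, a Rab of the cilium, was 14.2 to 17.7 CPM in the 4 and 28.1 to 46.9 CPM in the others. These 4 libraries were the 4 lowest for 237 of the 13136 genes tested (1.80%) and the 4 highest for 192 (1.46%), and for 4 and 0 of the 50 Rabs. Without these 4 libraries, an alternative added after the data were seen, 6 of the 6 rises and 5 of the 6 falls among Rabs were kept, and Rab23 was no longer called. No test of these 4 Rabs is read from that fit, since their own values singled the libraries out.

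Among the 8 tested Rabs of recycling endosomes, 1 fell and none rose. Rab14, which works between the trans-Golgi network and recycling endosomes, had 69.8, 85.6 and 101 CPM as the lowest, median and highest PX values and 90.6, 112 and 116 CPM in Sham. Sham 46 was the lowest Sham library, and 7 PX libraries lay below it. The log2 fold change was -0.35 ± 0.07 (edgeR, adjusted p = 0.00109), small but with the smallest adjusted p of the falls. Rab4a, Rab4b, Rab11a, Rab11b, Rab25 and Rab35 of the same route were not called, with log2 fold changes from -0.24 to 0.18. Rab15, also of this route, had 3.17, 7.95 and 17.7 CPM in PX and 3.82, 15.8 and 19.2 CPM in Sham and just missed the threshold, at -0.68 ± 0.27 (edgeR, adjusted p = 0.0587).

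None of the 6 tested Rabs of late endosomes, lysosomes and autophagosomes was called. They were Rab7a (-0.21 ± 0.22), Rab9a (0.18 ± 0.16), Rab9b (-0.30 ± 0.15), Rab24 (0.07 ± 0.14), Rab29 (0.06 ± 0.14) and Rab39a (-0.33 ± 0.16), as log2 fold change and SE. Exons of Rab24 overlap those of Prelid1 on the opposite strand, as those of Rab2b overlap Tox4, so the counts of both Rabs are less certain.

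Of 3 Rabs of the cilium, Rab23, a brake on Hedgehog signalling, fell. It had 47.2, 51.2 and 63.9 CPM in PX and 46.8, 65.9 and 76.1 CPM in Sham as lowest, median and highest values, with Sham 46 the lowest of the Sham libraries. The groups overlapped, the log2 fold change was -0.28 ± 0.09 (edgeR, adjusted p = 0.0170), and the call was lost on leaving out any 1 of PX 36, PX 38, PX 41, PX 44, Sham 21, Sham 24, Sham 73 or Sham 74 (adjusted p = 0.0526 without Sham 21). Rab23 was also not called with the acinar covariate (edgeR, adjusted p = 0.114) or with PX libraries of BG 121 or less (0.121). Of the 4 less well characterised Rabs tested, 2 fell, against 16.2% of all genes. Rab36, placed on late endosomes and Golgi, had 2.04, 3.04 and 5.4 CPM in PX and 3.17, 4.80 and 8.57 CPM in Sham, at -0.68 ± 0.19 (edgeR, adjusted p = 0.00827). Rab40c, a Rab with a SOCS box that joins ubiquitin ligases, had 7.83, 12.1 and 14.5 CPM in PX and 12.6, 15.7 and 20.9 CPM in Sham, at -0.42 ± 0.12 (edgeR, adjusted p = 0.0114). Both overlapped between groups. Rab36 was not called with the acinar covariate (-0.47, edgeR adjusted p = 0.119) or with PX libraries of BG 121 or less (-0.54, 0.0667). Rab40c was not called without PX 41 (-0.33, edgeR adjusted p = 0.0523) or with PX libraries of BG 121 or less (-0.33, 0.0956).

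The 6 Rabs with too few reads to test were Rab17, Rab20, Rab33a, Rab42, Rab44 and Rab7b. Rab7b, a lysosomal Rab, had 0.499, 2.06 and 12.9 CPM in PX and 0, 0.272 and 0.761 CPM in Sham as lowest, median and highest values, with PX 58 and PX 62 the high libraries. Rab20, known from phagosomes, had 0.671, 2.25 and 4.90 CPM in PX and 0, 0.431 and 0.951 CPM in Sham. Rab17, an epithelial Rab of recycling endosomes, had 0.346, 2.96 and 6.97 CPM in PX and 0, 0.286 and 2.29 CPM in Sham. In a fit with no filter, over 20977 genes, these 3 were higher in PX by 3.68 ± 0.58, 2.22 ± 0.43 and 2.34 ± 0.57 on the log2 scale (edgeR, adjusted p = 6.79e-05, 0.000349 and 0.00403). Rab44 had at most 8 reads in a PX library and none in any Sham library. It too was higher in PX in the fit with no filter, at 3.82 ± 0.93 (edgeR, adjusted p = 0.00505), a value that rests on these few reads. Rab33a had at most 17 reads in a library and Rab42 at most 4, and neither was called without the filter.

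The ratio of 2 paralogs within a library does not depend on how libraries are scaled, apart from the prior count. For 15 pairs from 1 subfamily each, both genes were measured, and 7 ratios differed between PX and Sham (two-sided permutation tests, Benjamini-Hochberg over 15 pairs). How often ratios of other gene pairs differ was not measured, so 7 of 15 is not read as particular to Rabs. Except for Rab26 over Rab37 and Rab9a over Rab9b, each of these pairs held a Rab already called alone in the main fit. Rab22a over Rab31, as a log2 ratio, averaged 0.08 ± 0.56 in PX, with Sham at 1.13 ± 0.44 (SD over 11 and 10 libraries), a difference of -1.06 (permutation test, adjusted p = 0.0018). Rab32 over Rab38 was 1.14 ± 0.56 in PX and -0.10 ± 0.66 in Sham, a difference of 1.25 (permutation test, adjusted p = 0.0018). In Sham libraries Rab32 had 3 to 22 reads and Rab38 had 3 to 23, so their Sham ratio is uncertain. Both passed the filter chiefly through PX, and whether Rab32 rose more than Rab38 is not decided by this ratio. Rab6a over Rab6b was 6.56 ± 1.17 in PX and 4.87 ± 0.85 in Sham (difference 1.68, permutation test, adjusted p = 0.0129).

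Rab27a over Rab27b was 2.72 ± 1.39 across PX libraries, against 4.31 ± 0.97 in Sham, a difference of -1.59 (permutation test, adjusted p = 0.0217). The lowest ratio, -0.37, was in PX 65. Rab26 over Rab37 was 2.61 ± 1.71 in PX and 0.75 ± 1.23 in Sham (difference 1.85, permutation test, adjusted p = 0.0217), although neither gene was called alone in the main fit. Its highest values were in PX 65 and PX 70, where Rab37 had no reads. With PX libraries of BG 121 or less, Rab26 over Rab37 and Rab27a over Rab27b were among the pairs no longer called (permutation test, adjusted p = 0.0666 for both). Only Rab22a over Rab31 and Rab32 over Rab38 were called in every alternative run for the pairs (permutation test, adjusted p at most 0.0135 and 0.0183). Rab3a over Rab3b was 0.15 ± 0.30 in PX and -0.22 ± 0.30 in Sham (difference 0.37, permutation test, adjusted p = 0.027). Rab9a over Rab9b was -0.91 ± 0.52 in PX and -1.40 ± 0.28 in Sham (difference 0.48, permutation test, adjusted p = 0.0359), again with neither gene called alone. The Rab9 ratio was not called when any 1 of 11 libraries was left out, with the adjusted p between 0.0522 and 0.0689, and the Rab3a over Rab3b ratio was not called without PX 62 (0.0537) or Sham 49 (0.0578). The other 8 pairs did not pass the threshold, with differences from -0.30 (Rab3a over Rab3d) to 0.23 (Rab11a over Rab11b). No pair separated the groups fully: 7 PX libraries lay below all Sham libraries for Rab22a over Rab31 and 5 lay above them for Rab32 over Rab38.

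**Figure D4:**
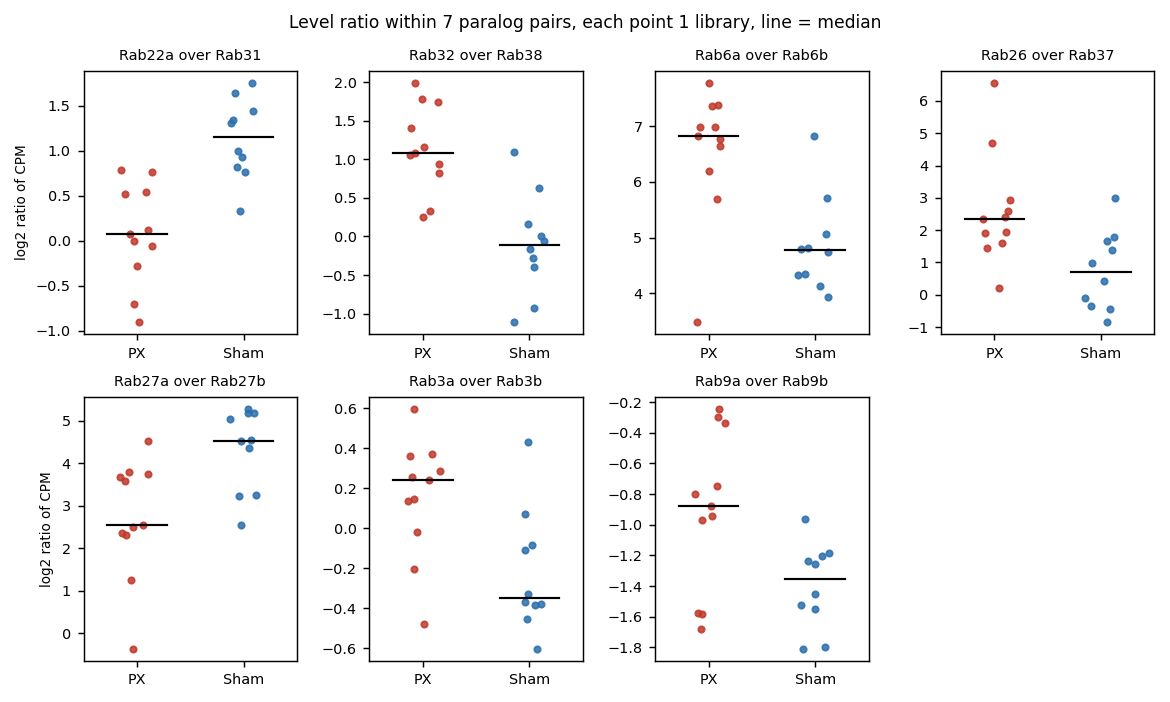
Log2 ratio of 2 Rab paralogs in each library, PX beside Sham, for the 7 pairs whose ratio differed, with the group median as a line. The Rab22a over Rab31 ratio averages 0.08 in PX and 1.13 in Sham, and the Rab26 over Rab37 and Rab27a over Rab27b ratios spread most within PX, to 6.57 and -0.37.

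Proteins that load, switch off, carry or read the Rabs were listed separately. Of 83 such genes listed, 80 were in the table and 74 were tested, of which 7 rose and 21 fell, with a median log2 fold change of -0.19, where 14.9% of all genes tested rose and 16.2% fell. The number that fell was 9 with the acinar covariate, 8 with PX libraries of BG 121 or less and as low as 10 on leaving out 1 library (Sham 24 or Sham 74). That split depended on the scaling: it was 8 and 13 with DESeq2's size factors and 3 and 17 with library totals alone. The median over all genes was -0.04 with TMM, 0.01 with DESeq2's size factors and -0.28 with totals. Of 11 tested effectors at secretory granules, 4 rose and 5 fell, against 14.9% and 16.2% of all genes.

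The granule effectors that rose were Mlph, Sytl2, Unc13d and Sytl1. Mlph, melanophilin, which links Rab27a to myosin Va, had 2.68, 5.64 and 17.3 CPM as the lowest, median and highest PX values and 0, 0.778 and 3.04 CPM in Sham, at 2.30 ± 0.46 (log2, edgeR, adjusted p = 0.00067). Sytl2, a synaptotagmin-like Rab27 effector, had 1.35, 3.0 and 5.07 CPM in PX and 0.705, 1.10 and 1.71 CPM in Sham, at 1.38 ± 0.22 (edgeR, adjusted p = 6.6e-05), with 10 PX libraries above all Sham libraries. Sytl2 and Mlph passed the filter chiefly through PX. Their Sham medians, which are TMM-scaled, lay below its level of 1.43 CPM, which applies before that scaling. Unc13d, Munc13-4, a priming factor bound by Rab27, had 2.94, 3.95 and 7.83 CPM in PX and 0.654, 2.34 and 2.85 CPM in Sham, with no overlap, at 1.16 ± 0.23 (edgeR, adjusted p = 0.000587). Sytl1, another Rab27 effector, had 38.2, 53.1 and 127 CPM in PX and 23.0, 38.4 and 62.8 CPM in Sham, at 0.52 ± 0.20 (edgeR, adjusted p = 0.0435). This call was lost without any 1 of PX 57, PX 62, PX 65, Sham 22, Sham 24, Sham 47, Sham 48 or Sham 73 (0.35 and adjusted p = 0.0976 by edgeR without PX 65), with limma voom (adjusted p = 0.0528), with no filter (0.0623), with library totals alone (0.301), with the acinar covariate (0.523) and with PX libraries of BG 121 or less (0.111).

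The granule effectors that fell were Sytl5, Rims2, Myrip, Exph5 and Myo5a. Sytl5, a Rab27 effector, had 13.7, 26 and 53.3 CPM in PX and 38.2, 55.4 and 70 CPM in Sham, at -0.87 ± 0.16 (edgeR, adjusted p = 0.000272). Rims2, a Rab3 effector that docks insulin granules, had 20.3, 36.8 and 72.2 CPM in PX, the highest in PX 44, and 51.7, 68.3 and 76.4 CPM in Sham, at -0.78 ± 0.15 (edgeR, adjusted p = 0.000546). Myrip, which ties Rab27a to myosin and actin, had 32, 45.3 and 61.6 CPM in PX and 56, 64.7 and 75.1 CPM in Sham, at -0.49 ± 0.10 (edgeR, adjusted p = 0.000512). For each of these 3, 10 of 11 PX libraries lay below all Sham libraries.

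Exph5, a further Rab27 effector, had 15, 24.3 and 34.2 CPM in PX and 24.9, 37.7 and 48.9 CPM in Sham, at -0.65 ± 0.14 (edgeR, adjusted p = 0.00131). Myo5a, the myosin motor that melanophilin recruits, was at -0.33 ± 0.13 (edgeR, adjusted p = 0.0468). Granuphilin, Sytl4, the granule effector best known in beta cells, had 181, 211 and 400 CPM in PX and 235, 274 and 373 CPM in Sham and was not called, at -0.18 ± 0.13 (edgeR, adjusted p = 0.317). Markers of other cells moved beside these effectors. Alpha and delta cell markers fell in 3 of 5 and 2 of 3 tested genes. Of 9 tested beta cell markers 3 fell and 1, Iapp, rose (log2 fold change 0.6, edgeR, adjusted p = 0.0452). Acinar, duct and macrophage markers were higher in 5 of 25, 6 of 9 and 13 of 13. The median log2 fold change of the 25 acinar markers was 1.32. Mesenchymal, endothelial and leukocyte markers were higher in 11 of 12, 5 of 9 and 3 of 3. The part of these markers in the effector results was not tested.

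**Figure D5:**
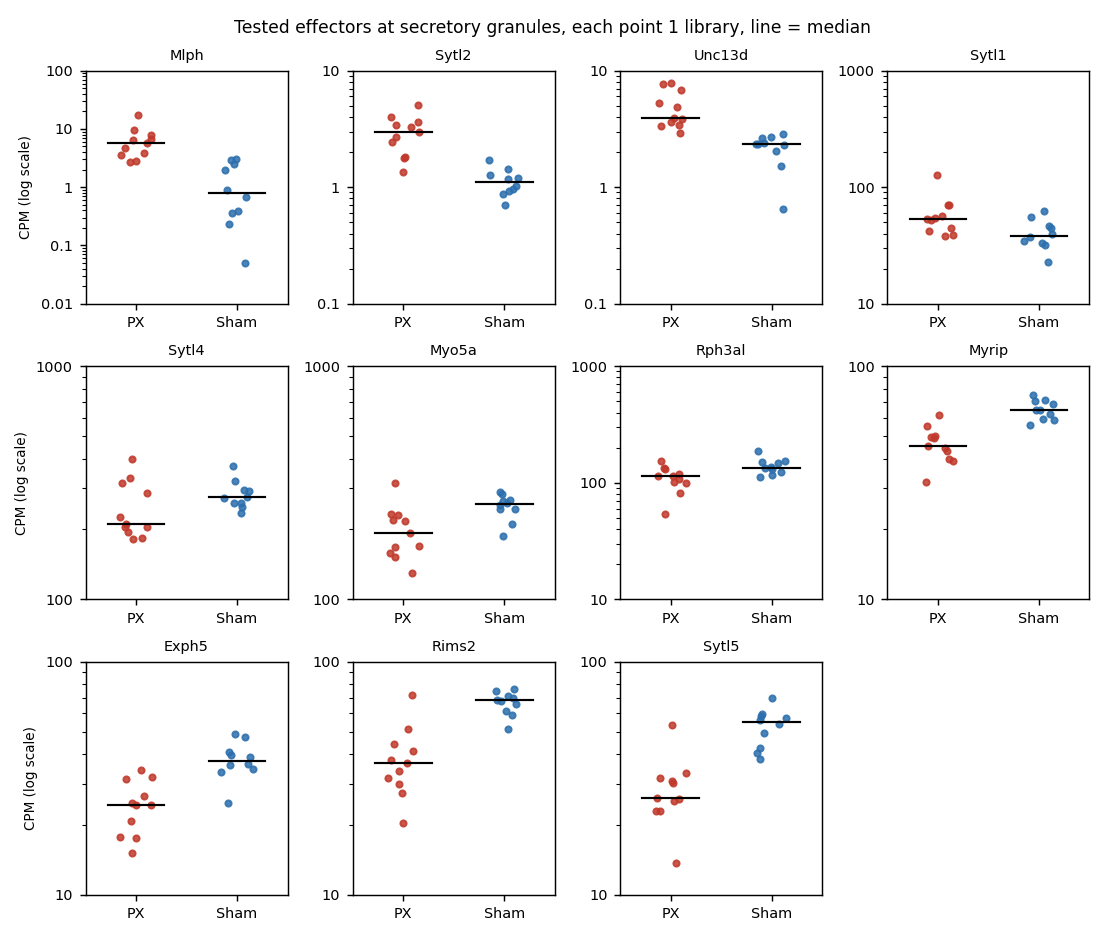
CPM on a log scale of the Rab effectors at secretory granules, 1 point per library and the group median as a line, with 1 value of 0 drawn at 0.05. Mlph, Sytl2 and Unc13d are higher in PX, with medians of 5.64, 3.0 and 3.95 CPM, and Sytl5, Rims2 and Myrip are lower in PX, with medians of 26, 36.8 and 45.3 CPM.

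Of 22 tested exchange factors, 1 rose and 8 fell, against 14.9% and 16.2% of all genes. The rise was in Rab3il1, an exchange factor for Rab3 and Rab8 proteins, which had 1.47, 3.10 and 6.13 CPM in PX and 1.06, 1.45 and 2.49 CPM in Sham, at 0.93 ± 0.24 (edgeR, adjusted p = 0.00463). With library totals alone Rab3il1 was at 0.61 (edgeR, adjusted p = 0.0898). Its homolog Rab3ip, Rabin8, fell, with 25.6, 34.0 and 48 CPM in PX and 35.4, 44.2 and 53.5 CPM in Sham, at -0.34 ± 0.10 (edgeR, adjusted p = 0.0137). Madd, the main exchange factor of Rab3 and Rab27 in neurons, was not called, at -0.33 ± 0.21.

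Of 16 tested GTPase-activating proteins, 1 rose and 5 fell, beside the same shares of all genes (14.9% and 16.2%). Tbc1d5, which acts on Rab7 with retromer, had 36.4, 44.2 and 63.0 CPM in PX and 48, 64.2 and 79.2 CPM in Sham, at -0.51 ± 0.10 (edgeR, adjusted p = 0.000533). Rab3gap2, a subunit of the Rab3 GTPase-activating complex, fell by 0.41 on the log2 scale, and its partner Rab3gap1 was level at 0.06 ± 0.10. Tbc1d1, known from glucose transporter traffic in muscle, rose, with 23.1, 30.3 and 39.2 CPM in PX and 19.0, 24.2 and 28.1 CPM in Sham, at 0.31 ± 0.10 (edgeR, adjusted p = 0.0154). With library totals alone Tbc1d1 was at 0.07 (edgeR, adjusted p = 0.774). Of 19 tested effectors at endosomes, Golgi and lysosomes, 1 rose and 3 fell, among them Rab11fip3, a Rab11 effector of recycling endosomes, with 16.8, 29.9 and 51.1 CPM in PX and 27.5, 50.5 and 59.1 CPM in Sham, at -0.69 ± 0.15 (edgeR, adjusted p = 0.00134). None of 6 tested escort, prenylation and membrane recycling genes was called.

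BG varied within PX from 101 to 174, which allowed each gene to be fitted against BG in the 11 PX libraries alone. Of 45 Rabs tested among 11196 genes, none was called for a BG slope by edgeR, and none by DESeq2 or limma voom. At an unadjusted p under 0.05, edgeR gave 5 Rabs with a positive and 8 with a negative slope. Over all genes tested those shares were 5.93% and 6.92%. At the same unadjusted level DESeq2 gave 5 and 9 of the 45 Rabs, beside 650 and 842 of the 11196 genes. Limma voom gave 3 and 9 of the 45 Rabs, beside 615 and 727 of the 11196 genes.

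The 4 smallest p-values were those of Rab7a, Rab27b, Rab30 and Rab3d. Rab7a changed by -0.20 ± 0.07 on the log2 scale per 10 BG units (SE; edgeR, Benjamini-Hochberg adjusted p = 0.347), Rab27b by 0.20 ± 0.07, Rab30, a Golgi Rab, by 0.15 ± 0.05, and Rab3d by 0.09 ± 0.03. PX 65, with the highest BG, 174, and the largest acinar share, moved all 4 slopes: without it they were -0.11 for Rab7a, -0.06 for Rab27b, 0.02 for Rab30 and 0.05 for Rab3d. Rab27b, at 38 CPM in PX 65 and 13.4 CPM in the next PX library, changed sign. The level in PX 65 is raised by that library's TMM factor of 0.3587.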

How the data were processed

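Polyadenylated RNA of rat islets was measured in 21 libraries, 11 PX and 10 Sham, grouped by their titles. The submitters' processing notes name FastQC, the Subread package with featureCounts, and limma, without versions. How the reads were aligned, whether strand was used and on which build is not given in the sources used here. Authors' deposited counts are whole reads per gene name, not normalized, with a deposited gene length in base pairs, per the file headers. The authors' deposited comparison table gives a log2 fold change and an adjusted p-value per gene, per the file headers.

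Genes passed edgeR's filterByExpr (edgeR 4.0.16, R 4.3.3) at its minimum count of 10 and total of 15. TMM-scaled robust quasi-likelihood models were fitted over all genes, for PX against Sham and for the slope per 10 BG units within PX. Tests were two-sided with Benjamini-Hochberg adjustment and a threshold of 0.05. CPM are TMM-scaled. Paralog ratios used log2 CPM with a prior count of 2 and permutation tests with 100000 resamples (scipy 1.17.1). The code was tested on simulated counts.

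Alternatives were DESeq2 1.42.0, limma 3.58.1 voom, other scalings and filters, an acinar or macrophage covariate, PX libraries with BG of 121 or less, and leaving out libraries. Rabs described in full were those called, all granule Rabs, the 5 most abundant per length and the 4 with the smallest slope p; of regulators and effectors up to 6 per direction by p, with others named after their values were seen. The Rab genes and all lists were chosen with earlier results of these data known. Libraries are taken as separate animals from their numbers alone, and p-values measure the spread between these samples. Intervals of counting error are not given for single libraries, and depth limits the low genes, such as Rab37 with at most 28 reads in a library. Results for some regulators are not reported here.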

Additional observations from a re-analysis of the deposited data

Results flagged for a closer look

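Among 36 named genes, each checked in the 10 Sham libraries, 3 had 1 library far from the rest, and chance flags about 1 gene in 20. All 3 were low in Sham 46. Rab14 was 6.51 there as log2 CPM, against 6.69 in the next lowest Sham library. Rab2a was 4.38 there, against 4.67 in the next. Unc13d, the Rab27-bound priming factor, was -0.11 there, against 0.85 in the next. Sham 46 also had the highest Sham values of Rab32, Rab38, Rab13 and Rab27b.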

How the results depend on the processing

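The 6 rises and 6 falls among Rabs were the same genes with DESeq2's size factors, and DESeq2 and limma voom kept all 12. DESeq2 also called Rab26 and Rab37, and limma voom also called Rab37. With no filter 10 Rabs rose. With the acinar covariate 2 Rabs and 9 regulators and effectors fell, and with PX libraries of BG 121 or less 1 Rab and 8 regulators and effectors fell and 3 paralog pairs differed. Regulator and effector falls were 13 with DESeq2's size factors, and their rises were 3 with library totals alone. With the macrophage covariate, which overlaps the group, all 4 counts were 0, and differences turned to -0.65 for Rab13, 0.01 for Rab23, -0.03 for Tbc1d1, 0.08 for Myrip, 0.04 for Tbc1d5 and 0.21 for Exph5. Without PX 57, PX 65, Sham 49 and Sham 50, regulator and effector falls were 12 and pairs 4; without PX 44, PX 65 and Sham 46, 7 Rabs rose and 9 fell, with 6 rises and 5 falls kept. The cause was not tested. Leaving out 1 library at a time gave 6 to 7 Rab rises, 4 to 9 Rab falls (4 without PX 41, 9 without PX 44), 5 to 10 and 10 to 24 regulator and effector rises and falls (10 without Sham 24 or Sham 74, 11 without PX 36, PX 41 or Sham 73, 12 without PX 38, 13 without Sham 22), 5 to 7 pairs and 0 to 0 slopes. No paired analysis was possible because PX and Sham share no animal numbers. Genes that reached 1.43 CPM, before TMM scaling, in too few libraries could not be tested at this depth.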

Other observations

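Further Rab regulators and effectors were called but fell outside those described above, and are named here after their values were seen. Among effectors of recycling and early endosomes, Rab11fip4 was at -0.50 ± 0.13 and Appl2, a Rab5 effector, at -0.51 ± 0.17, while Rab11fip5 was at 0.53 ± 0.20 (log2 fold change PX minus Sham and SE; edgeR, Benjamini-Hochberg adjusted p = 0.00485, 0.0228 and 0.0438). Rab11fip4 had 16.1, 23.8 and 35.8 CPM as lowest, median and highest PX values and 29.2, 34.7 and 44.4 CPM in Sham, with 8 PX libraries below all Sham libraries. Among exchange factors, the DENN domain genes Dennd3, Dennd1a, Dennd4c and Dennd6a were at -0.43, -0.41, -0.37 and -0.28 and all passed the threshold, and Dennd1b and Dennd5a, at -0.16 and -0.11, did not.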
